A study of Mus musculus with 6 samples.

Results

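The genes described here encode aminoacyl-tRNA synthetases, the enzymes that attach each amino acid to its tRNA. They were chosen as a fixed list of 36 symbols, 20 of them for the cytosolic enzymes and 16, with the suffix 2, for enzymes of the mitochondrion. All 36 were found among 21851 genes. RNA-seq was done on 6 libraries of hematopoietic stem cells (HSCs), the self-renewing bone marrow source of the blood lineages. In the IR group (3 libraries) the wild-type mice had been exposed to ionizing radiation, and in the Ctrl group (3 libraries) wild-type mice served as controls. The series title calls the cells prematurely aged, and the gate excluded lineage-marked, Flt3-positive and CD48-positive cells among those carrying Sca-1, c-Kit and CD150. The sources used here do not give radiation dose, time after exposure, age, sex or how many mice stand behind a library. Nothing in the labels ties the replicates to separate animals, so p-values measure the spread between these libraries, which may be technical.

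A synthetase first activates its amino acid with ATP and then transfers it to the matching tRNA, so each round of translation draws on these enzymes. Cells keep a separate set for the mitochondrion, where the few proteins encoded by mitochondrial DNA are made, and the genes of that set lie in the nucleus. In mammals Gars and Kars each encode the enzyme of both compartments, and Eprs encodes a single protein that charges both glutamate and proline. Several cytosolic synthetases are bound in a multisynthetase complex, and many cytosolic synthetase genes are known targets of ATF4, the transcription factor of the integrated stress response. HSCs are known for a low rate of protein synthesis.

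Levels are given as FPKM, a fragment count scaled by transcript length and by library depth, and so a relative measure that depends on the rest of the library. Steps between low values placed the libraries at about 14400000 to 16300000 fragments. All 36 genes were above 1 FPKM in every library, with a lowest value of 1.86 FPKM. Of the sort markers, Kit was at 96.7 ± 1.65 FPKM in IR and 97.5 ± 1.72 FPKM in Ctrl HSCs, Slamf1, which encodes CD150, at 5.06 ± 0.443 and 3.57 ± 0.409 FPKM, and Ly6a, which encodes Sca-1, at 157 ± 5.17 and 203 ± 5.13 FPKM (SD, n = 3 each). The RNA of both genes whose proteins the gate excluded was present and abundant. By its mean Cd48 was above 98.1% of tested genes and Flt3 above 89.7%, against 24.7% for Slamf1, 89.9% for Kit and 95% for Ly6a. Flt3 was at 65.7 ± 1.43 FPKM in IR and 125 ± 1.58 FPKM in Ctrl HSCs, and Cd48 at 352 ± 8.003 and 400.1 ± 3.36 FPKM. The summed FPKM of 4 neutrophil markers was 63.6 to 71.6 in IR and 99.2 to 102 in Ctrl libraries, that of 3 monocyte markers 37.0 to 38.1 and 50.4 to 51.3, and that of 4 erythroid markers 17.4 to 22.01 and 29.5 to 36.7. That of 5 T and NK cell markers, nearly all of it Nkg7, was 645 to 654 in IR and 525 to 549 in Ctrl libraries, while Klrd1 of the same set was lower, at 0.824 ± 0.297 FPKM in IR and 2.002 ± 0.323 FPKM in Ctrl HSCs. Most of the neutrophil sum was S100a8, at 61.7 ± 4.45 FPKM in IR and 85.6 ± 1.42 FPKM in Ctrl HSCs. Ngp and Camp of that set were lower in IR as well. Cd3g was at 0 FPKM in every library, Pax5 was at 0 FPKM in every IR library, and Ly6g was at 0 FPKM in IR and averaged 0.0976 FPKM in Ctrl. The part of these cells in the results below was not tested. In such bulk samples fewer cells of a type and less RNA per cell cannot be told apart.

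Most cytosolic synthetase genes were higher in IR HSCs, and no cytosolic member was called lower. In the test used throughout, limma with Benjamini-Hochberg adjustment over 10281 genes and a threshold of 0.05, 15 of the 20 genes rose and 5 missed the threshold. Of all genes tested 54.7% were called, 25.8% as higher and 28.9% as lower in IR. The median log2 fold change of the 20 genes on the log2(FPKM + 1) scale was 0.16, against -0.0072 over all genes tested. The rises were small, with ratios of mean FPKM of 1.05 for Dars to 1.29 for Wars. In 16 of the 20 genes every IR library lay above every Ctrl library, which was so for 29.1% of all genes tested, and in 0 of the 20 below, against 32.5%.

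**Figure D1:**
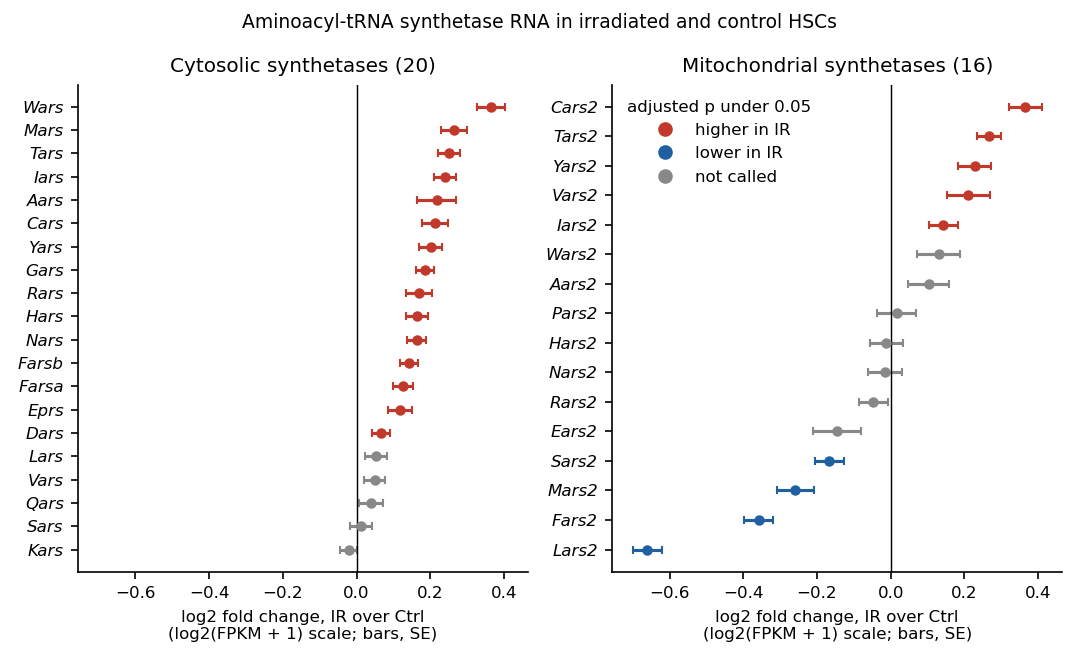
Log2 fold changes of IR over Ctrl HSCs on the log2(FPKM + 1) scale, with bars of 1 SE, for 20 cytosolic (left) and 16 mitochondrial (right) synthetase genes in order of size. The cytosolic genes run from -0.02 for Kars to 0.37 for Wars and 15 are called higher, while the mitochondrial genes run from -0.66 for Lars2 to 0.36 for Cars2, with 5 called higher and 4 lower.

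Wars, which charges tryptophan and in human cells is also induced by interferon-gamma, had the largest cytosolic rise. It stood at 55.6, 57.3 and 58.3 FPKM in the IR libraries, against 46.1, 41.9 and 44.3 FPKM in the Ctrl libraries. The lowest IR library was above the highest Ctrl library, and the log2 fold change was 0.37 (SE 0.037, limma adjusted p = 2.71e-05). Tars, the threonine enzyme, stood at 62.8, 62.0 and 65.8 FPKM in IR and at 53.6, 52.6 and 53.4 FPKM in Ctrl libraries (log2 fold change 0.25, limma adjusted p = 7e-05).

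Iars, which charges isoleucine within the multisynthetase complex, had 50.9, 50.2 and 51.3 FPKM in IR libraries and 43.1, 41.5 and 43.9 FPKM in Ctrl libraries. The groups did not overlap, and the log2 fold change was 0.24 (SE 0.030, limma adjusted p = 0.000101). Mars, the methionine enzyme of the same complex, had 52.1, 49.7 and 52.8 FPKM in IR and 44.0, 43.1 and 41.1 FPKM in Ctrl libraries (0.26, limma adjusted p = 0.000141). Both rose beyond the spread of either group.

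Gars, whose product charges glycine in the cytosol and in the mitochondrion, had 97.6, 95.2 and 98.7 FPKM in IR libraries, against 85.3, 84.9 and 85.8 FPKM in Ctrl libraries. Its Ctrl libraries lay within 1 FPKM of each other, and its log2 fold change was 0.19 (SE 0.024, limma adjusted p = 0.000132). Yars, the tyrosine enzyme, had 48.9, 47.3 and 50.3 FPKM in IR and 42.7, 42.7 and 41.7 FPKM in Ctrl libraries. It rose by 0.20 on the log2 scale (limma adjusted p = 0.000397).

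Kars, the lysine enzyme that like Gars serves both compartments, was not called. It averaged 117 ± 2.40 FPKM in IR and 119 ± 1.17 FPKM in Ctrl HSCs (SD, n = 3 each), with overlapping groups. The most abundant cytosolic member was Dars, the aspartate enzyme, above 94.8% of tested genes by its mean. It had 185, 174 and 182 FPKM in IR libraries and 172, 171 and 173 FPKM in Ctrl libraries, and IR replicate 2 was close to the Ctrl libraries. Its log2 fold change of 0.07 was the smallest among called members (limma adjusted p = 0.0459). Leaving out any of 5 of the 6 libraries ended this call (adjusted p = 0.00773 to adjusted p = 0.156 over the 6 omissions), and the other 14 cytosolic calls held in each omission.

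**Figure D2:**
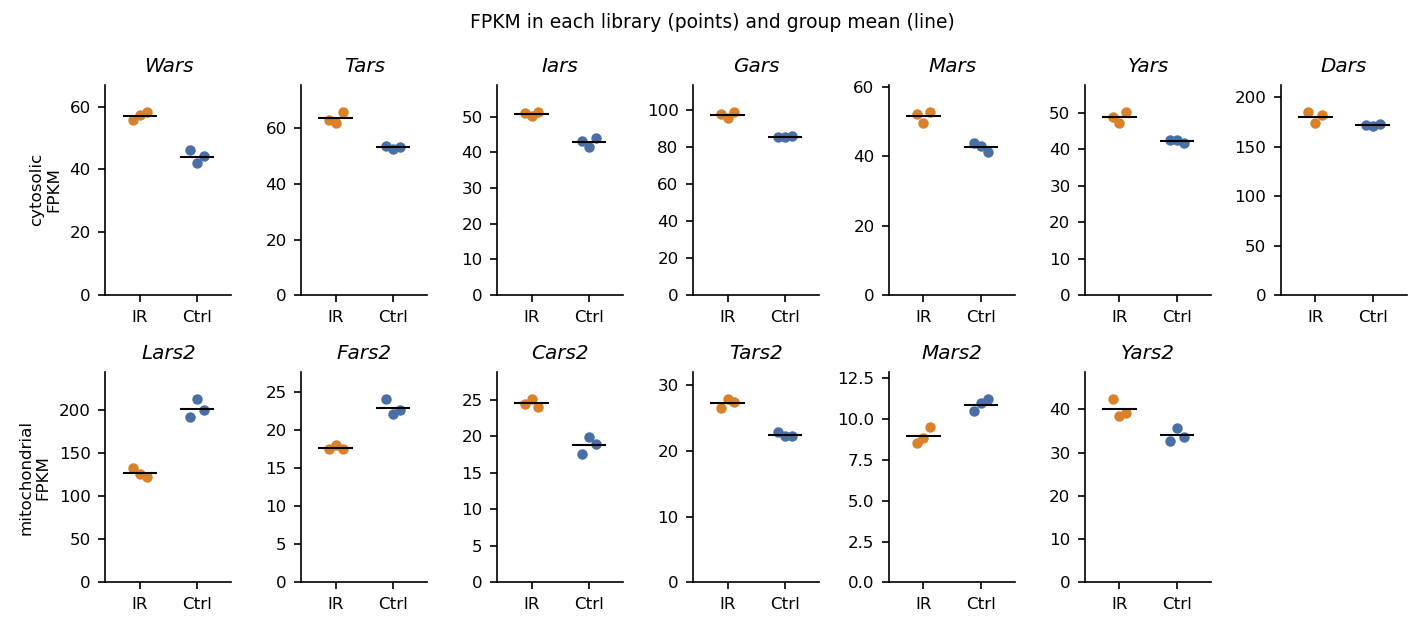
FPKM of the 6 cytosolic (top) and 6 mitochondrial (bottom) synthetase genes with the smallest p, and of Dars, in each IR and Ctrl library (points) with group means (lines), axes starting at 0. The IR and Ctrl points are separate in every panel, by little in Dars (lowest IR library 174 FPKM, highest Ctrl library 173 FPKM) and widely in Lars2 (highest IR library 133 FPKM, lowest Ctrl library 192 FPKM).

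Both subunits of the cytosolic phenylalanine enzyme rose. Farsa, the alpha subunit, averaged 168 ± 4.75 FPKM in IR and 154 ± 3.34 FPKM in Ctrl HSCs, and Farsb, the beta subunit, 82.2 ± 1.49 and 74.3 ± 0.534 FPKM (SD, n = 3 each). Their log2 fold changes were 0.13 and 0.14. The other called members were Aars (alanine) at a log2 fold change of 0.22, Cars (cysteine) at 0.21, Rars (arginine) at 0.17, Hars (histidine) at 0.16, Nars (asparagine) at 0.16 and Eprs at 0.12.

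The members not called beside Kars were Lars (leucine) at a log2 fold change of 0.05, Vars (valine) at 0.05, Qars (glutamine) at 0.04 and Sars (serine) at 0.01. Of these, Lars did not overlap between groups, at 42.7 to 44.3 FPKM in IR and 41.1 to 42.6 FPKM in Ctrl libraries. Of the 8 synthetases of the multisynthetase complex 5 rose (Dars, Eprs, Iars, Mars and Rars) and 3 did not pass, and their median log2 fold change was 0.09; of all genes tested 25.8% were higher, and the Dars call among these 5 is the one that ended in 5 of 6 omissions. Of the 12 other cytosolic members 10 rose and 2 were not called, with a median of 0.17. By the fold of the catalytic domain, 6 of 9 class I members and 8 of 10 class II members rose, leaving out Eprs, which holds a domain of each class. Differences between these subgroups were not tested.

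Promoter sequences are shown because ATF4 acts on several of these genes through a composite element shared with C/EBP factors. Windows of 300 bases, 250 before and 50 after each start, were matched in RefSeq (GRCm38.p6) for 27 of the 36 genes, 13 cytosolic and 14 mitochondrial. The windows of Cars, Hars, Hars2, Lars, Nars, Pars2, Rars, Vars and Wars were not used here. The letters TGATGNAA, searched on both strands with no other motif, were found in 5 of the 13 cytosolic genes and 0 of the 14 mitochondrial genes. They were found in 1219 of 27025 genes with a window (4.51%). The 60-base stretches below, written 5′ to 3′ on the strand of the gene, have the match in capitals (TTNCATCA where it is on the other strand).
Aars, chr8:111033704-111033763, plus strand: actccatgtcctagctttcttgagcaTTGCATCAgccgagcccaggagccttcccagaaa
Aars, chr8:111033825-111033884, plus strand: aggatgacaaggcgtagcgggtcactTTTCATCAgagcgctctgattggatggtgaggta
Gars, chr6:55037945-55038004, plus strand: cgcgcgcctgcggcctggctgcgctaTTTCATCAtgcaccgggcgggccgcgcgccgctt
Iars, chr13:49682111-49682170, plus strand: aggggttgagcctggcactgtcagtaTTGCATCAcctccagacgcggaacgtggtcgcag
Tars, chr15:11399640-11399699, minus strand: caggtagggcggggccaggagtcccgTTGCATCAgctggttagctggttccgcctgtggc
Yars, chr4:129189880-129189939, plus strand: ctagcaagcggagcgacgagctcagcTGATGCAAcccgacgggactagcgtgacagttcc

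All 5 genes with a match were called higher, with log2 fold changes of 0.19 to 0.25. So were 15 of all 20 cytosolic genes and 25.8% of all genes tested. Of the 8 cytosolic genes whose window held no match, Dars, Eprs, Farsa, Farsb and Mars were called higher and Kars, Qars and Sars were not called, over a range of -0.02 to 0.26. The ranges overlap, with Mars, which has no match in its window, above all 5 genes that have one. A match is a run of letters and no measurement of binding.

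Mitochondrial synthetase RNA changed in both directions. Among the 16 genes, 5 rose, 4 fell and 7 missed the threshold, against 25.8% higher and 28.9% lower over all genes tested. The median log2 fold change was 0.0023, close to the -0.0072 of all genes. Lars2, Fars2, Mars2 and Sars2 fell and Cars2, Tars2, Yars2, Vars2 and Iars2 rose. All 9 calls held when any single library was left out. Groups did not overlap in 11 of the 16 genes (6 with IR above, 5 with IR below), against 61.7% of all genes tested.

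Lars2, the mitochondrial leucine enzyme, mutated in human Perrault syndrome, had the largest change of all 36 genes. It stood at 133, 126 and 122 FPKM in the IR libraries, against 192, 212 and 199.9 FPKM in the Ctrl libraries. The groups were far apart, with a ratio of means of 0.631 and a log2 fold change of -0.66 (SE 0.039, limma adjusted p = 7.76e-07). It was also the most abundant mitochondrial member, above 94.3% of tested genes, whereas the other 15 averaged 40.0 FPKM or less in IR and 36.1 FPKM or less in Ctrl HSCs. The gene lies on chromosome 9 from 123366927 to 123462666 (GRCm38, GENCODE M21). Its longest coding transcript, of 3894 bases, holds a stretch of 97 bases that is 94.8% identical to a transcript of AA474408 and, overlapping it, 72 bases that are 98.6% identical to one of Gm15564. Reads from these stretches cannot be assigned with certainty, and their part in the Lars2 values was not tested.

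Fars2, the single-chain phenylalanine enzyme of the mitochondrion, had 17.5, 18.1 and 17.6 FPKM in IR libraries and 24.1, 22.2 and 22.7 FPKM in Ctrl libraries. It was below every Ctrl library in each IR library (log2 fold change -0.36, SE 0.040, limma adjusted p = 4.48e-05). Mars2, whose methionyl-tRNA also starts mitochondrial proteins once formylated, had 8.51, 8.83 and 9.497 FPKM in IR and 10.5, 10.96 and 11.2 FPKM in Ctrl libraries (-0.26, limma adjusted p = 0.00148). Sars2, the serine enzyme, averaged 17.0 ± 0.385 FPKM in IR and 19.2 ± 0.668 FPKM in Ctrl HSCs (-0.17, limma adjusted p = 0.00457).

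Cars2, the cysteine enzyme, which is also known to make cysteine persulfides, rose to 24.4, 25.1 and 24.1 FPKM in IR libraries, against 17.6, 19.9 and 19.0 FPKM in Ctrl libraries. Its log2 fold change of 0.36 (SE 0.045, limma adjusted p = 8.66e-05) was the largest rise among the mitochondrial members. Tars2, for threonine, had 26.5, 27.9 and 27.4 FPKM in IR libraries and 22.9, 22.3 and 22.3 FPKM in Ctrl libraries (0.27, limma adjusted p = 0.000105). Yars2, for tyrosine, is mutated in a human disorder of muscle and red cell precursors. It had 42.3, 38.4 and 39.2 FPKM in IR libraries, against 32.6, 35.7 and 33.7 FPKM in Ctrl libraries (0.23, limma adjusted p = 0.00158).

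Vars2 (valine) was at 2.8997 ± 0.1005 FPKM in IR and 2.37 ± 0.125 FPKM in Ctrl HSCs (log2 fold change 0.21), and Iars2 (isoleucine) at 28.5 ± 0.322 and 25.8 ± 1.34 FPKM (0.14; SD, n = 3 each). The members not called were Wars2 at 0.13, Aars2 at 0.10, Pars2 at 0.02, Hars2 at -0.01, Nars2 at -0.01, Rars2 at -0.05 and Ears2 at -0.15. Ears2, the glutamate enzyme and the least abundant of the 36, whose values are given after they were seen, had 1.93, 2.21 and 1.86 FPKM in IR and 2.39, 2.23 and 2.33 FPKM in Ctrl libraries. The groups barely separated, and about 55 fragments in the lowest library give a counting error of 13.5% in that library.

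The change in the ratio of each cytosolic gene to its mitochondrial partner differed from pair to pair. There were 15 such pairs for 14 amino acids, since Fars2 pairs with both cytosolic subunits, and this comparison was described without a test. In 8 pairs the ratio was higher in every IR library than in any Ctrl library, in 2 it was lower, and in 5 the groups overlapped. Among these 8, the Farsa and Farsb pairs share the Fars2 values. Of single genes tested 61.7% did not overlap between groups, and no such share was computed for ratios of other genes. The log2 ratio of Lars to Lars2 was -1.54 in IR and -2.26 in Ctrl HSCs, a difference of 0.72. For Mars and Mars2 it was 2.53 in IR and 1.97 in Ctrl (0.55), and for Farsa and Fars2 3.25 and 2.74 (0.50). In these pairs the cytosolic and mitochondrial genes went opposite ways or only the mitochondrial one was called. In 4 pairs, those for threonine, tyrosine, isoleucine and cysteine, both genes rose, and the ratios of the first 3 differed by -0.02, -0.03 and 0.10. Cysteine and valine went the other way, with a ratio lower in every IR library than in any Ctrl library. The difference was -0.16 for Cars to Cars2 (-0.04 in IR and 0.11 in Ctrl) and -0.24 for Vars to Vars2 (4.80 in IR and 5.05 in Ctrl).

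**Figure D3:**
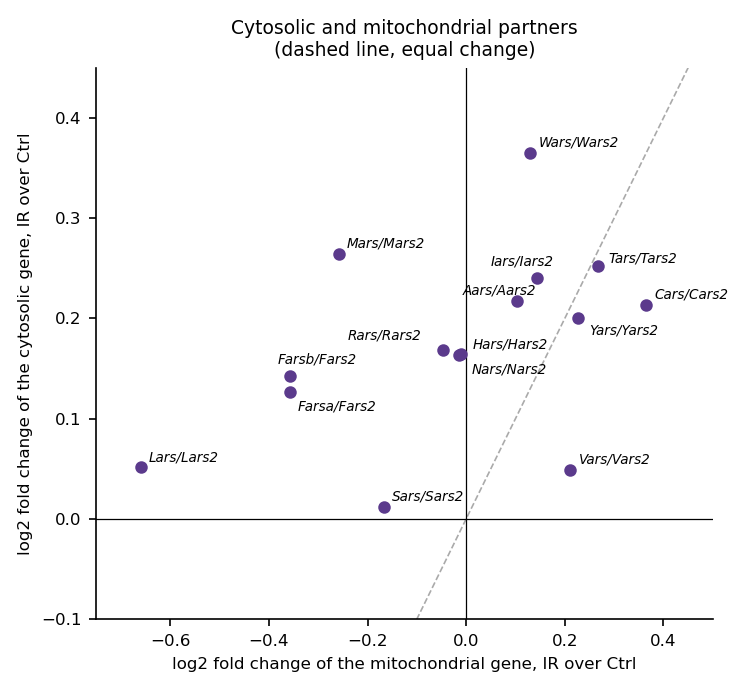
Log2 fold change (IR over Ctrl, log2(FPKM + 1) scale) of each cytosolic gene against that of its mitochondrial partner, 15 pairs; the dashed line marks equal change. Every cytosolic gene shown lies above 0, from 0.01 for Sars to 0.37 for Wars, while the mitochondrial genes spread from -0.66 for Lars2 to 0.36 for Cars2.

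Summed over its 20 genes, the cytosolic set held 1536 ± 11.4 FPKM in IR and 1397 ± 12.8 FPKM in Ctrl HSCs (SD, n = 3 each), a ratio of 1.10. The mitochondrial set held 382 ± 6.69 FPKM in IR and 446 ± 11.8 FPKM in Ctrl HSCs, a ratio of 0.855. Lars2 alone was 32.3% to 34.1% of the mitochondrial sum in IR and 43.8% to 46.1% in Ctrl libraries. Without Lars2, an alternative chosen after seeing the data, the mitochondrial sum was 255 ± 2.71 FPKM in IR and 245 ± 3.38 FPKM in Ctrl HSCs, a ratio of 1.04. The lower mitochondrial sum thus rested on a single gene, and without it the direction turned.

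**Figure D4:**
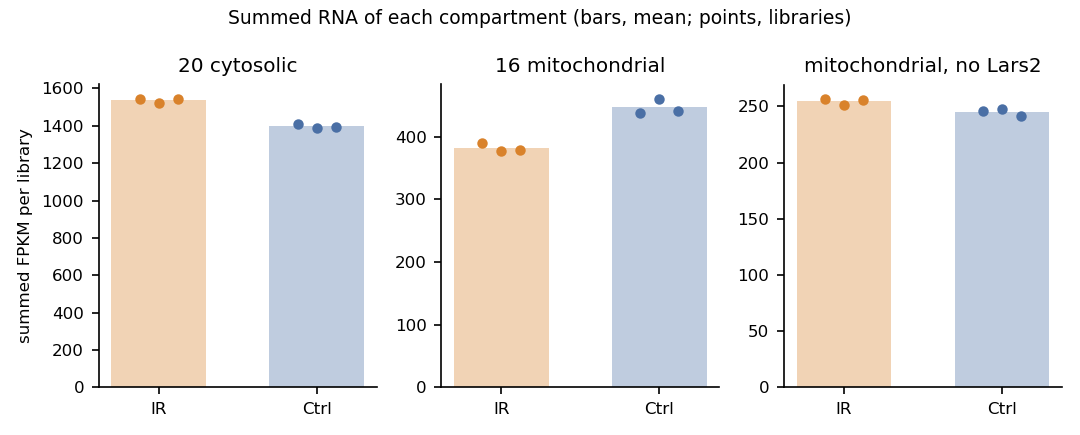
Summed FPKM per library (points) and group mean (bars from 0) of the 20 cytosolic genes, the 16 mitochondrial genes, and the mitochondrial genes without Lars2. The cytosolic sum is higher in IR (1523 to 1544 against 1387 to 1412), the mitochondrial sum lower (378 to 389.5 against 438 to 460.0), and without Lars2 slightly higher (252 to 257 against 241 to 248).

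Some of these values come from loci where annotated exons of another gene overlap, which applied to 13 of the 36 genes. Aars shares 1326 exon bases on the same strand with Exosc6, an exosome subunit gene, which was at 50.4 ± 1.90 FPKM in IR and 48.9 ± 2.04 FPKM in Ctrl HSCs. Iars2 shares 2034 exon bases on the opposite strand with Rab3gap2, which was at 15.6 ± 0.380 and 13.7 ± 0.244 FPKM (SD, n = 3 each). Cars2 shares 422 exon bases on the opposite strand with Naxd, which has no values under that symbol. Fars2 shares 115 on the opposite strand with Lyrm4, which was at 27.8 ± 1.005 FPKM in IR and 31.6 ± 0.327 FPKM in Ctrl HSCs. The library kit marks strand, but whether the counting used it is not given in the sources used here, so reads of such pairs may have been split or shared. Iars also has a copy, Gm4849, whose transcript is 96.0% identical over 1656 bases, and its value is uncertain to that extent. The transcripts of Hars and Hars2, neighbours in the genome, share 195 bases.

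Genes that work beside the synthetases were described from lists chosen by function, with up to 4 genes of each named by smallest p. The counts of each list are to be read against the 25.8% higher and 28.9% lower of all genes tested. Among scaffolds, other synthetases and synthetase-like genes 5 of 9 rose, 1 fell and 3 were not called (median 0.11). The scaffold genes of the multisynthetase complex Aimp2 and Eef1e1 rose by 0.11 and 0.13, whereas Aimp1, named after its values were seen, was not called at -0.04. Aarsd1, which encodes an alanyl-tRNA editing protein, averaged 63.6 ± 0.881 FPKM in IR and 47.0 ± 2.41 FPKM in Ctrl HSCs (0.43), and Dtd2, a deacylase that clears mischarged tRNA, fell by 0.24. Tarsl2, another cytosolic threonine enzyme, named after its values were seen, rose by 0.20.

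Mitochondrial tRNA charging and translation partners rose in 9 of 21 cases and fell in 3 (median 0.07), against 25.8% and 28.9% of all genes tested. Tufm, the elongation factor that brings charged tRNA to the mitochondrial ribosome, had 92.0, 91.7 and 97.0 FPKM in IR and 79.4, 74.2 and 74.96 FPKM in Ctrl libraries, with no overlap (0.29, limma adjusted p = 5.86e-05). Mrrf, the ribosome recycling factor, rose by 0.28, and Mtrf1, a release factor, fell by 0.31. Qrsl1 encodes a subunit of the amidotransferase that turns the glutamate attached by Ears2 into glutamine. Qrsl1 RNA had 14.7, 15.0 and 14.8 FPKM in IR libraries and 17.9, 18.6 and 18.0 FPKM in Ctrl libraries (-0.27, limma adjusted p = 0.000131). Of the other two subunits, named after their values were seen, Gatb fell by 0.18 and Gatc was at 0.07, not called.

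In tRNA maturation and export 5 of 20 genes rose and 3 fell (median -0.03), a share of higher genes near the 25.8% of all genes tested. Xpot, the nuclear export receptor for tRNA, had 21.8, 21.3 and 21.3 FPKM in IR libraries and 16.4, 17.0 and 16.7 FPKM in Ctrl libraries (0.34, limma adjusted p = 2.18e-05). Elac2, which trims the 3′ end of tRNA, rose by 0.32, Ssb, which encodes the La protein, by 0.11, and Pop4, of RNase P, fell by 0.13. In tRNA modification 9 of 31 tested genes rose and 5 fell (median 0.03), also near 25.8% higher. The 4 with the smallest p, all of them higher, were the pseudouridine synthase gene Pus7 at 0.38, Trmt61a at 0.39, the methyltransferase gene Nsun2 at 0.19 and Cdk5rap1 at 0.41. Among 9 genes for delivery of charged tRNA to the cytosolic ribosome 2 rose and 1 fell (median 0.02), no more than the 25.8% and 28.9% of all genes tested. These were Eef1g at 0.10, Eef1d at 0.15 and Gtpbp2, a ribosome rescue GTPase, at -0.16; Eef1a1, the carrier of charged tRNA, was not called at -0.04.

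The integrated stress response list holds the kinases that start the response, Eif2s1, Atf4 and genes downstream of it, and its members moved in both directions. Of 26 tested members 12 rose, 7 fell and 7 missed the threshold (median 0.09), against 25.8% higher and 28.9% lower over all genes tested. Psat1, of serine synthesis, had 95.8, 95.3 and 96.3 FPKM in IR libraries and 79.4, 77.2 and 76.3 FPKM in Ctrl libraries (0.30, limma adjusted p = 7.22e-06). Aldh18a1, of proline synthesis, rose by 0.36, Nupr1, a stress-induced chromatin protein, by 0.79 and Eif2s1, the initiation factor subunit phosphorylated in this response, by 0.22. Named after their values were seen, Atf4 RNA was not called, at 77.4 ± 1.70 FPKM in IR and 80.9 ± 1.42 FPKM in Ctrl HSCs (-0.06), and its targets Asns, Trib3 and Ddit4 stood at 0.15, -0.51 and -0.64, all called. Among amino acid transporters 8 of 16 tested genes rose and 3 fell (median 0.11), against the same shares of all genes tested. Slc1a5, a glutamine carrier, had 68.0, 67.1 and 67.1 FPKM in IR libraries and 51.4, 52.5 and 52.3 FPKM in Ctrl libraries (0.37, limma adjusted p = 2.22e-06). Slc7a8, Slc38a2 and Slc7a5 rose by 0.43, 0.18 and 0.19.

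**Figure D5:**
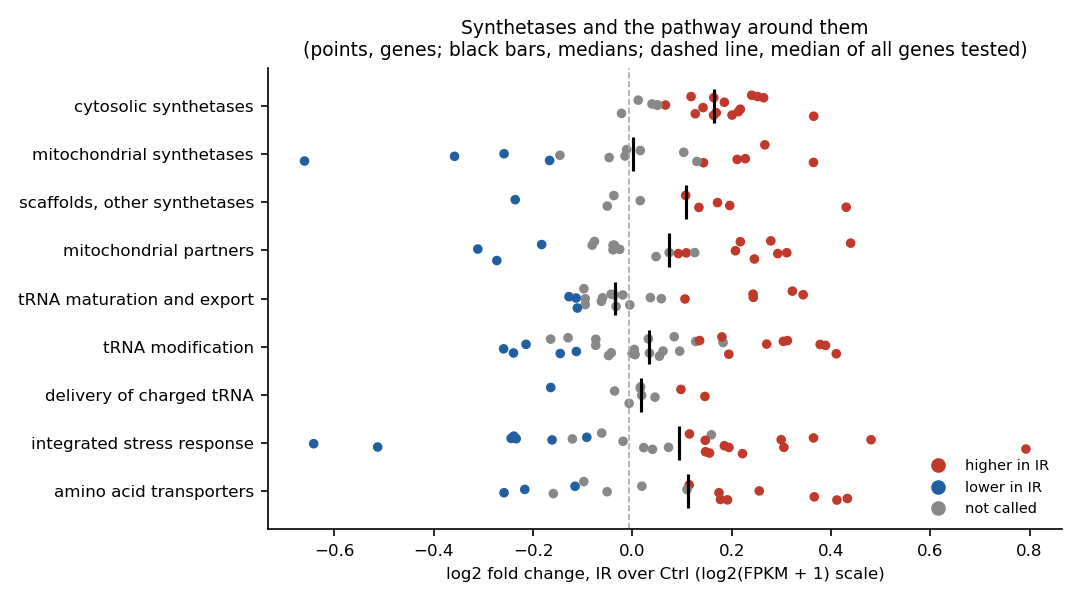
Log2 fold change (IR over Ctrl, log2(FPKM + 1) scale) of each tested gene (points, coloured by call) in the 2 synthetase sets and 7 lists around them, with list medians (black bars) and the median of all genes tested (dashed, -0.0072). The cytosolic synthetases have the highest median, 0.16, and no point called lower, while each of the other 8 rows holds points called in both directions.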

How the data were processed

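Strand-marking mRNA libraries were made from the RNA of sorted HSCs, per the labels' protocols. The authors deposited a table of FPKM by symbol for each library. The submitters' processing notes list fastp, HISAT2 and StringTie and the build GRCm38 (mm10). The sources used here give no versions, settings or annotation, and that the values are FPKM rests on their range and on these tools. Of 21878 entries, 27 with a date where a symbol belongs were dropped. A gene was tested if 3 or more libraries reached 1 FPKM, which left 10281. The test was limma 3.58.1 in R 4.3.3 on log2(FPKM + 1), 2-sided, with an empirical Bayes trend and no replicate block, with Benjamini-Hochberg adjustment over all of them and a threshold of 0.05. The test was checked on simulated data. This scale understates the change of low genes.

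Low values of genes with 1 annotated transcript (GENCODE M21) gathered at whole multiples of a step: 24.7% to 28.5% lay within 0.01 of one, too few to recover reads, so FPKM were kept. Fragments per gene were estimated from the step, FPKM and the longest coding transcript. Cytosolic members had about 919 to 6474 fragments in a library and mitochondrial members about 55 to 13450. Over 917 to 952 genes with 1 annotated transcript, the variance between libraries of a group was 1.31 to 1.72 times that of counting noise. Genes with few fragments were left out of this comparison, and no libraries were merged. Shared stretches of at least 70 bases at 94% identity were found with blastn 2.17.0 among GENCODE M21 transcripts. Alternatives were 2 other pseudocounts, 2 other filters, 2 rescalings, a replicate block, no trend and leaving out each library. Named are all 36 members, with values per library for the 6 of each compartment with the smallest p and the most abundant of each, and up to 4 genes of each list by smallest p; other genes of the lists are said to be named after their values were seen, and markers other than those of the sort were named after theirs were. Members and lists were chosen with earlier results of these data known. Values of 1 gene of these lists are not reported here.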

Additional observations from a re-analysis of the deposited data

How the results depend on the processing

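The counts of called genes in each compartment and over all genes stayed within 1.5 times under every alternative run, and no cytosolic member was called lower in any. With no filter on low values (21851 genes tested) 12 cytosolic members were called higher, and Aars, Dars, Rars and Iars2 were no longer past the threshold (limma adjusted p = 0.0799, adjusted p = 0.135, adjusted p = 0.0514 and adjusted p = 0.0693). With a filter of 5 FPKM, Ears2, Vars2 and Wars2 were not tested. The replicate numbers gave no sign of pairing: correlations of same-numbered deviations were 0.0085, -0.0314 and -0.0486. Those of differently numbered ones were -0.0153 to 0.0453. Such values cannot tell whether same-numbered libraries were collected or prepared together. With the replicate block 14 cytosolic and 9 mitochondrial members were called, Dars being lost (adjusted p = 0.0555), and 5379 of all genes. Without the trend Dars was lost, and Ears2 (-0.15) and Wars2 (0.13) were called. Leaving out each library gave cytosolic medians of 0.15 to 0.18 (0.1492 to 0.1811), mitochondrial medians of -0.0277 to 0.02483, cytosolic sums of 1.096 to 1.105 times Ctrl and mitochondrial sums of 0.8466 to 0.8684 times Ctrl. Of the members not called, 3 changed sign in such omissions: Hars2 without Ctrl replicate 1 (0.01616) or IR replicate 1 (0.01738), in a range of -0.04666 to 0.01738, Pars2 without Ctrl replicate 3, in a range of -0.03057 to 0.05667, and Nars2 without IR replicate 2, in a range of -0.03705 to 0.02468. The cause was not tested. Leaving out Lars2 moved the mitochondrial sum to 1.04 times Ctrl. Rescaling by median ratios moved the median of all genes to 0.0013 and left the calls of both compartments at 15 and 9. Counting error limits Ears2, Vars2 and Wars2, at about 55, 155 and 197 fragments in their lowest library.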

Other observations

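By the fold of the catalytic domain, 4 of 9 class I mitochondrial members rose and 2 fell (Lars2 and Mars2). Of the 7 class II mitochondrial members 1 rose (Tars2) and 2 fell (Fars2 and Sars2). Over all genes tested 25.8% were higher and 28.9% lower in IR, and no difference between the classes was tested. Within the IR group, replicate 2 was the lowest library in 10 of the 20 cytosolic genes and in 6 of the 16 mitochondrial genes; within Ctrl, replicate 2 was lowest in 9 and 6. The ratio of the cytosolic to the mitochondrial sum was 3.96 to 4.08 in IR and 3.02 to 3.22 in Ctrl libraries, and without Lars2 it was 6.005 to 6.05 in IR and 5.60 to 5.77 in Ctrl libraries.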
